A study of Mus musculus with 8 samples.

Results

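The nuclear genes for the mitochondrial transcription machinery and for the complex that stabilizes mitochondrial mRNAs were examined in hearts of mice lacking mtSSB. This is the mitochondrial single-stranded DNA-binding protein, encoded by Ssbp1. The 10 members were set by name and identified by gene symbol, with no threshold on a measured value, and all 10 of 10 were found among the 55383 rows of the deposited table: Polrmt, Tfam, Tfb1m, Tfb2m, Tefm, Mterf2, Mterf3, Mterf4, Lrpprc and Slirp. All 10 passed the filter on low values. The comparison was between 2 control hearts (replicates 1 and 2, labelled Ssbp1+/+) and 2 knockout hearts (replicates 1 and 2, labelled Ssbp1-/-), from mice of 5 weeks of age on a C57BL/6N nuclear background. In the study's design both groups carried the loxP-flanked Ssbp1 gene with exon 3 as the target, and the knockouts (L/L, cre) additionally carried Cre recombinase under the muscle creatine kinase promoter (Ckmm-cre), whereas controls were L/L. The labels do not say which mouse carried Cre. That promoter is known to be active in cardiomyocytes and skeletal muscle, so that by this design the other cells of the heart are not targeted, and Ssbp1 was not measured by cell type. For the other 2 mice (numbers 585H and 586H) the title and the genotype field contradict each other, and they enter only the alternatives named as such.

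Mammalian mtDNA is transcribed from promoters on both strands by POLRMT, an RNA polymerase related to those of bacteriophages. TFAM packages mtDNA into nucleoids and bends promoter DNA, TFB2M opens the promoter, and TEFM keeps the polymerase on the template during elongation. Primary transcripts cover nearly the whole genome and are cut at tRNAs, after which LRPPRC and its partner SLIRP bind the released mRNAs and protect them from decay. Transcription started at the light-strand promoter also primes mtDNA replication, which ties these factors to mtSSB.

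Total RNA of each heart had been sequenced by strand, and values are normalized counts, that is, read counts divided by the library's size factor. Control libraries held 19716305 and 24067849 reads and knockout libraries 25558246 and 25682093. Nuclear genes took 6568812 and 8981637 of these in controls, against 10734547 and 11259234 in knockouts. Between 54 (Tfb1m) and 3320 (Lrpprc) estimated reads lay behind each value of a member. Ssbp1 itself had normalized counts of 176.9 and 215.6 in controls and 169.7 and 163.0 in knockouts (log2 fold change -0.23, SE 0.16, limma adjusted p = 0.890). This whole-gene count does not separate exon 3 from the other exons or cell types from each other. The paper reports mtSSB protein as absent from knockout heart tissue by proteomics. The hearts were cardiomyocyte-rich, with the 7 cardiomyocyte markers summing to 572642 to 606254 in controls and 580082 to 602510 in knockouts, whereas all 4 adipocyte and all 5 skeletal muscle markers stayed under a normalized count of 10. Of the 4 atrial markers, Myl7 and Sln were at or near 0 (at most 1.53), Myl4 was at 9.89 to 16.2 and Nppa at 449 to 1102 in the 4 hearts, which the labels describe as whole hearts. As these are bulk samples, fewer cells of a type and less RNA per cell cannot be told apart. Each library came from a separate mouse, and whether mice shared a litter is not given in the sources used here.

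Sequences upstream of the members were read from RefSeq (GRCm38.p6), in which 9 of the 10 genes had a window of 250 bases before and 50 bases after the start of transcription (Mterf3 had no entry). They are shown because several of these genes are textbook targets of nuclear respiratory factors, and 4 motifs were searched on both strands: the NRF1 core GCGCATGC, the ETS site CCGGAAG bound by GABP (also called NRF2), the YY1 site AAGATGGC and the Sp1 site GGGCGG. Polrmt, the polymerase gene and the member that varied most between hearts, held an NRF1 core and an ETS site. Lrpprc, the most highly expressed member, held only an Sp1 site. Matches are in capitals, and each line runs 5′ to 3′ on the strand of the gene up to the base before the RefSeq start.
Polrmt, chr10:79746582-79746831, minus strand: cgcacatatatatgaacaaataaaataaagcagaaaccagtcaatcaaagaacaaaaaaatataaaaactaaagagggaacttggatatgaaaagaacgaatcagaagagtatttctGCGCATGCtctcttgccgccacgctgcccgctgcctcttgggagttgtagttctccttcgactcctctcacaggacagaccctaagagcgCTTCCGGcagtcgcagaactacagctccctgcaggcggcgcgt
Lrpprc, chr17:84790787-84791036, minus strand: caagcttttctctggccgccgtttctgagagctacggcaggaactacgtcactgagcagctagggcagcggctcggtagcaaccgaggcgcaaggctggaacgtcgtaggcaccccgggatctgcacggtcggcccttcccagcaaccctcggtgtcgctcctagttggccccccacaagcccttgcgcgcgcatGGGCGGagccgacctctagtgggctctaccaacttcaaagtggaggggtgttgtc
For Tfam only the ETS match and its flanks are given, because GENCODE starts the transcript further upstream and annotates this stretch as untranslated sequence of exon 1.
Tfam, chr10:71238075-71238101, minus strand: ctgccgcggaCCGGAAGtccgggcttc
The ETS site was the most widespread of the longer motifs among the members. It occurred in 5 genes (Polrmt, Tfam, Tefm, Mterf4 and Slirp) and in 8.86% of all 32851 windows. An NRF1 core was present in Polrmt (starting 133 bases before the start) and in Tfb2m (13 bases after it), compared with 2.71% of windows. Slirp held 3 ETS matches and the only YY1 match (2.75% of windows), and the short Sp1 site, found in 35.7% of windows, occurred in Tfam, Tfb1m, Tfb2m and Lrpprc. No match in these windows overlapped another, and a match describes letters only.

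No factor passed the test for a difference between knockout and control hearts. The nearest were Tfam and Lrpprc, which were 1.39-fold and 1.13-fold higher in the mean of the knockouts and whose groups did not overlap. By limma, 0 of the 10 members passed an adjusted p of 0.05, against 17 of all 14522 genes tested (0.117%). At an unadjusted p under 0.05 there was 1 member, Tfam, compared with 6.11% of all genes. Count tests were run on whole reads regained from the deposited values. They gave 0 members with edgeR (0.131% of the 14522 genes called) and 0 with DESeq2 (0.494% of the 12551 genes given an adjusted p). Each again had 1 member, Tfam, under an unadjusted p of 0.05. Of the 14522 genes, 888 with edgeR and 526 with DESeq2 were under that p. Both knockouts lay above both controls for 2 of 10 members, close to the share among all genes (18.1%), and below both controls for 0 (17.5% of all genes). The median log2 fold change of the members was -0.03, beside 0.00 for all genes tested, with 4 of 10 above 0.

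**Figure D1:**
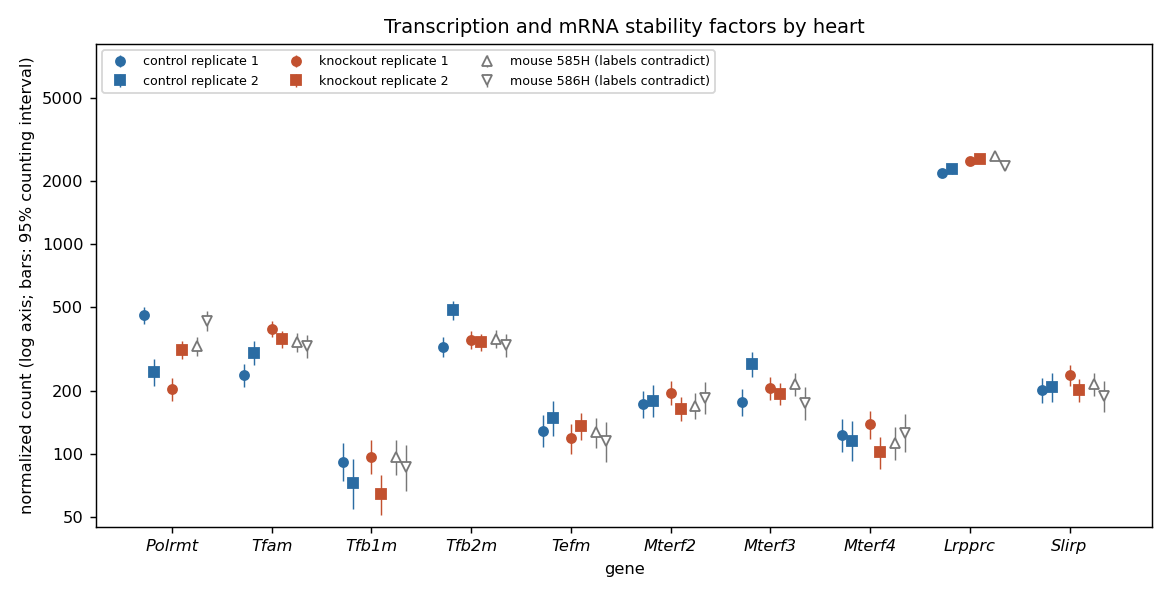
Normalized counts (log axis) of the 10 members in each heart, with 95% Poisson intervals as bars, which cover counting error only. Filled blue symbols are controls, filled red symbols knockouts and open symbols the mice 585H and 586H, whose labels contradict each other. Only for Tfam and Lrpprc do both filled red symbols lie above both filled blue symbols.

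Polrmt (chr10:79736123-79746581) encodes the mitochondrial RNA polymerase. Its normalized counts were 459.4 and 246.5 in controls and 203.5 and 312.1 in knockouts. The groups overlapped, and control replicate 1 stood above the other 3 hearts. The means were 353 ± 150 in controls and 258 ± 76.8 in knockouts (SD, n = 2), a log2 fold change of -0.42 (SE 0.33, 95% interval -1.22 to 0.39, limma adjusted p = 0.899), so that this difference was within the spread between hearts. Without control replicate 1 it was 0.03, and without control replicate 2 it was -0.86 (limma adjusted p = 0.704), so the sign depended on a control. Polrmt was the most variable member: the controls differed 1.86-fold, more than for 91.1% of genes tested, and the knockouts 1.53-fold, more than for 87.4%. Such shares are over genes of all levels, not matched by read number. The 95% Poisson intervals, which cover counting error only, were 419 to 503 in control replicate 1 and 212 to 285 in control replicate 2. With a GC content of 60.2% Polrmt was the only member among the 2900 genes of highest GC, for which the median log2 difference between control replicates 1 and 2 was 0.09, compared with 0.90 for Polrmt. The part of base composition in this gap was not tested.

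Tfam (chr10:71225464-71238280) encodes the factor that compacts mtDNA and starts transcription. Its normalized counts were 237.5 and 303.1 in controls and 393.8 and 352.7 in knockouts. Both knockouts exceeded both controls. The means were 270 ± 46.4 and 373 ± 29.1 (SD, n = 2), which corresponds to 1.39-fold (95% interval 1.06 to 1.82) or 0.47 on the log2 scale (SE 0.16). The unadjusted limma p of 0.0257 did not survive adjustment over all genes (adjusted p = 0.773), and edgeR and DESeq2 gave 0.48 and 0.47 with adjusted p-values of 0.768 and 0.9999. Tfam kept its positive sign in all 17 alternatives, from 0.29 when the 6 mice were grouped by title to 0.65 without control replicate 2. Without control replicate 1 it was 0.30. As both knockouts exceeded both controls, leaving out a heart could not turn this sign. Grouping the contradictory mice by the genotype field gave 0.34 for Tfam (limma adjusted p = 0.608). The paper reports less TFAM protein in knockout heart tissue by proteomics, whereas the values here are of RNA.

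Tfb2m (chr1:179528055-179546267) encodes the initiation factor, and Tfb1m (chr17:3519256-3557781) its paralogue, which methylates the rRNA of the small mitochondrial ribosomal subunit. Tfb2m had normalized counts of 323.5 and 483.6 in controls and 349.3 and 341.2 in knockouts. Both knockouts lay between the controls. Its log2 fold change of -0.20 (SE 0.20, 95% interval -0.68 to 0.29, limma adjusted p = 0.924) turned to 0.09 without control replicate 2, the highest heart, and was -0.49 without control replicate 1. Tfb1m, the member with the fewest reads, had normalized counts of 91.9 and 72.7 in controls and 97.2 and 64.3 in knockouts, so that the 2 knockouts enclosed the controls (log2 fold change -0.05, SE 0.27, 95% interval -0.71 to 0.61, limma adjusted p = 0.986). The value for Tfb1m turned to 0.12 without control replicate 1 and to 0.25 without knockout replicate 2. The ratio of Tfb2m to Tfb1m within a library, which does not depend on scaling, was 3.52 and 6.65 in controls and 3.59 and 5.31 in knockouts. The knockout ratios lay between those of the controls (log2 difference -0.15, exact permutation test, two-sided p = 1, where the smallest p for 2 against 2 is 0.333). Without control replicate 2 the difference was 0.31, and without knockout replicate 1 it was 0.13.

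Tefm (chr11:80136678-80142175) encodes the elongation factor. Normalized counts were 129.0 and 148.2 in controls and 118.6 and 135.4 in knockouts, and the groups overlapped. The log2 fold change was -0.12 (SE 0.18, 95% interval -0.55 to 0.30, limma adjusted p = 0.948). It stayed negative in all 17 alternatives, between -0.22 and -0.03, though several of these leave the estimate unchanged.

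The MTERF family consists of proteins of repeated helical motifs that bind mitochondrial nucleic acids. MTERF3 acts as a negative regulator of mtDNA transcription, and MTERF4 forms a complex with the rRNA methyltransferase NSUN4 in ribosome assembly. Mterf2 (chr10:85119433-85128027) had normalized counts of 173.0 and 179.2 in controls and 196.1 and 164.5 in knockouts. Mterf3 (chr13:66906968-66933088) had 176.9 and 268.1 in controls and 205.9 and 193.6 in knockouts, and Mterf4 (chr1:93299211-93305915) had 123.1 and 115.9 in controls and 138.4 and 101.7 in knockouts. Knockout replicate 1 was the highest of the 4 hearts and knockout replicate 2 the lowest for Mterf2 and Mterf4, whereas the Mterf3 knockouts lay between the controls. Log2 fold changes were 0.03 (SE 0.16, 95% interval -0.36 to 0.42) for Mterf2, -0.12 (SE 0.22, -0.66 to 0.41) for Mterf3 and -0.01 (SE 0.21, -0.52 to 0.50) for Mterf4, with limma adjusted p-values of 0.986, 0.957 and 0.996. None of these 3 differences exceeded the spread. Mterf2 turned to -0.10 without knockout replicate 1, Mterf3 to 0.17 without control replicate 2, and Mterf4 to 0.03 without control replicate 1 and 0.21 without knockout replicate 2. Mterf3 resembled Tfb2m in that control replicate 2 stood 1.51-fold above control replicate 1 (1.49-fold for Tfb2m), gaps larger than for 82.6% and 81.6% of genes tested.

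Lrpprc (chr17:84705247-84790789) encodes the RNA-binding protein that stabilizes mitochondrial mRNAs, and Slirp (chr12:87443896-87452206) its small partner, which depends on LRPPRC for its own stability. Lrpprc was the least variable member, with normalized counts of 2194 and 2271 in controls and 2492 and 2540 in knockouts. Both knockouts exceeded both controls, and the gaps within groups (1.04-fold and 1.02-fold) were larger than for only 12.7% and 8.68% of genes. These shares are not matched by level, and Lrpprc had the most reads of the members. The means were 2233 ± 54.6 and 2516 ± 33.9 (SD, n = 2), a 1.13-fold difference (95% interval 0.982 to 1.29), which did not pass the test (log2 fold change 0.17, SE 0.08, limma adjusted p = 0.815). Its sign was positive in all 17 alternatives, between 0.06 (6 mice grouped by title) and 0.20. As the groups did not overlap, leaving out a heart could not turn this sign. Slirp had normalized counts of 201.3 and 208.8 in controls and 237.2 and 201.2 in knockouts. Here the knockouts enclosed the controls (log2 fold change 0.09, SE 0.15, 95% interval -0.28 to 0.46, limma adjusted p = 0.956), and the value was -0.03 without knockout replicate 1. Slirp shares 2914 exonic bases with Snw1 on the opposite strand, and reads were counted by strand. The Slirp to Lrpprc ratio within a library was 0.0918 and 0.0919 in controls and 0.0952 and 0.0792 in knockouts. The knockout ratios thus lay on either side of the controls (log2 difference -0.08, exact permutation test, two-sided p = 1), and the difference was 0.05 without knockout replicate 2.

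**Figure D2:**
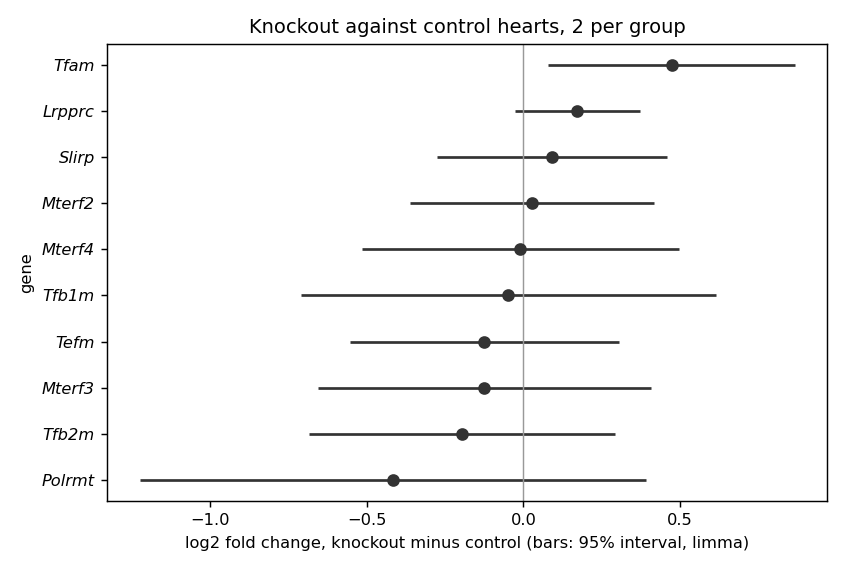
Log2 fold change of knockout against control hearts (2 per group) for each member, ordered by value, with 95% intervals from limma as bars. The interval of Tfam (0.08 to 0.87) is the only interval that excludes 0, before adjustment over genes, and the widest is that of Polrmt (-1.22 to 0.39).

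These unadjusted intervals give the differences compatible with the data and are narrower than what the adjusted test could call. For Lrpprc the upper bound was 1.29-fold, and for Slirp, Tefm and Mterf2 the bounds lay between 0.681-fold and 1.37-fold. For Polrmt the interval ran from 0.429-fold to 1.31-fold. As a measure of the adjusted test, the mitochondrially encoded mt-Nd2, with a log2 fold change of -1.11 and an SE of 0.13, smaller than that of every member except Lrpprc, was not called (limma adjusted p = 0.0699).

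Levels were compared between members per kb of the longest principal transcript in GENCODE vM21. Lrpprc stood first with a mean of 540 normalized counts per kb over the 4 hearts (lowest 499, highest 578), and its range did not overlap that of the next gene. Tfb2m (153), Mterf3 (143), Mterf2 (114), Tefm (101), Mterf4 (87.7), Polrmt (81.3), Slirp (78.5), Tfam (77.2) and Tfb1m (58.1) followed in the order of mean normalized counts per kb. Each of these 9 overlapped its neighbour in range. When the length of all exons was used instead, Lrpprc remained first and Tfb1m last, but Mterf3 moved from rank 3 to 8 and Tfam from 9 to 5. The transcripts that gave rise to the reads are unknown, which weighs most on Slirp, whose principal transcript (2701 bases) is long for a small protein. In controls Polrmt had 94.0 ± 40.1 normalized counts per kb and Tfam 64.9 ± 11.1, and in knockouts they had 68.7 ± 20.5 and 89.6 ± 6.97 (SD, n = 2).

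The products of this machinery were set beside the factors. Of 13 mitochondrially encoded RNA features, 6 were lower in knockouts by limma and 0 higher, with a median log2 fold change of -1.11. edgeR also called 6 lower and DESeq2 9, whereas limma without a mean-variance trend called 0 and so did limma with the 6 mice grouped by title. With the 6 mice grouped by the genotype field, limma called 9 lower. The title places mouse 585H (mt-Cytb 9788) among controls, which had 173453 and 221488 in replicates 1 and 2. It places mouse 586H (mt-Cytb 225993) among knockouts, which had 14504 and 10950. mt-Cytb, at the far end of the heavy-strand transcript, had a log2 fold change of -3.96 (SE 0.17), mt-Nd1 near its beginning had -0.22 (SE 0.11, adjusted p = 0.815), and mt-Nd6, the light-strand mRNA, had 0.76 (SE 0.19, adjusted p = 0.647). By comparison, the log2 fold changes of the 10 factors lay between -0.42 and 0.47. Normalized counts of the 10 heavy-strand mRNA features per normalized count of Lrpprc were 1215 and 1418 in control libraries and 525 and 463 in knockouts. The groups did not overlap, with means of 1317 ± 143 and 494 ± 43.8 (SD, n = 2), a ratio of 0.375 that was not tested. This is a ratio of sums, in which mt-Co1 had the highest counts. Without division by Lrpprc, single features ranged from 0.860-fold (mt-Nd1) to 0.0643-fold (mt-Cytb) in knockouts against controls. For mt-Nd6 per Polrmt the values were 9.10 and 25.1 in controls and 46.5 and 25.0 in knockouts, and they overlapped. Among the heart libraries the share of mitochondrial reads was 62.7 to 66.7% in controls and 56.2 to 58.0% in knockouts. Scaling to equal totals of nuclear genes gave 0.49 for Tfam and 0.19 for Lrpprc on the log2 scale.

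Genes around the factors were described by lists. Of the transcription and nucleoid partners 11 of 13 were tested (Mtres1 was not analysed here, and Mterf1b did not pass the filter on low values), and 0 passed the adjusted p by limma or edgeR, with 2 higher and 0 lower at an unadjusted p under 0.05. These were Lonp1 and Atad3a. Lonp1 encodes the matrix protease that degrades TFAM protein, and its normalized counts were 1057 and 1106 in controls and 1843 and 1594 in knockouts. Its log2 fold change of 0.66 (SE 0.11) had an adjusted p of 0.259 by limma and 0.260 by edgeR but 0.000376 by DESeq2. DESeq2 called no other gene of that list. With the 6 mice grouped by the genotype field, Lonp1 had 0.71 (limma adjusted p = 0.0257). Grouped by title, Lonp1 had 0.18 (limma adjusted p = 0.999). Atad3a, an inner membrane ATPase linked to nucleoids, had 427 and 365 in controls and 575 and 501 in knockouts (log2 fold change 0.44, SE 0.14, limma adjusted p = 0.746). The median log2 fold change of the 11 genes was 0.18.

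Of 20 genes for the maturation and decay of mitochondrial mRNA, 0 passed by limma, edgeR or DESeq2, and 1 was higher at an unadjusted p under 0.05. This was Elac2, which trims the 3′ ends of tRNAs (log2 fold change 0.43, SE 0.15, limma adjusted p = 0.792), and the list's median was 0.13. The 10 genes for rRNA modification had 0 calls by any of the 3 tools and 0 at an unadjusted p under 0.05, with a median of 0.09. The gene with the smallest p among them was Mrm3, a methyltransferase of the large-subunit rRNA (0.34, SE 0.15, limma adjusted p = 0.806).

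The 13 nuclear regulators, among them the factors whose motifs were searched above, also had 0 calls by the 3 tools and a median log2 fold change of 0.06. Nrf1 (0.15, SE 0.16) and Gabpa (0.18, SE 0.14), for the factors that bind the NRF1 and ETS sites, did not pass the test, nor did Ppargc1a (-0.06, SE 0.09), the coactivator known for driving mitochondrial biogenesis. At an unadjusted p under 0.05, 1 gene was higher and 1 lower. Myc, a growth-related transcription factor, had low normalized counts of 19.5 and 16.2 in controls and 42.8 and 68.1 in knockouts (log2 fold change 1.55, SE 0.36, limma adjusted p = 0.577). Pprc1, a coactivator of the same family as Ppargc1a, had 194 and 178 in controls and 113 and 130 in knockouts (-0.61, SE 0.17, limma adjusted p = 0.664). Beside these differences, the 5 erythroid markers summed to 14398 to 18944 in controls and 14926 to 41865 in knockouts and the 6 fibroblast markers to 13829 to 14832 and 10883 to 13242, with 0 markers of either list called by limma. Of the 6 endothelial, 6 macrophage and 4 smooth muscle markers and the 2 of 4 lymphocyte markers that passed the filter on low values, 0 were called as well. A single marker of all these lists, the macrophage gene Cd68, was at an unadjusted p under 0.05, with normalized counts of 81.1 and 57.9 in controls and 39.5 and 35.2 in knockouts. The part of these markers in the members' values was not tested.

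**Figure D3:**
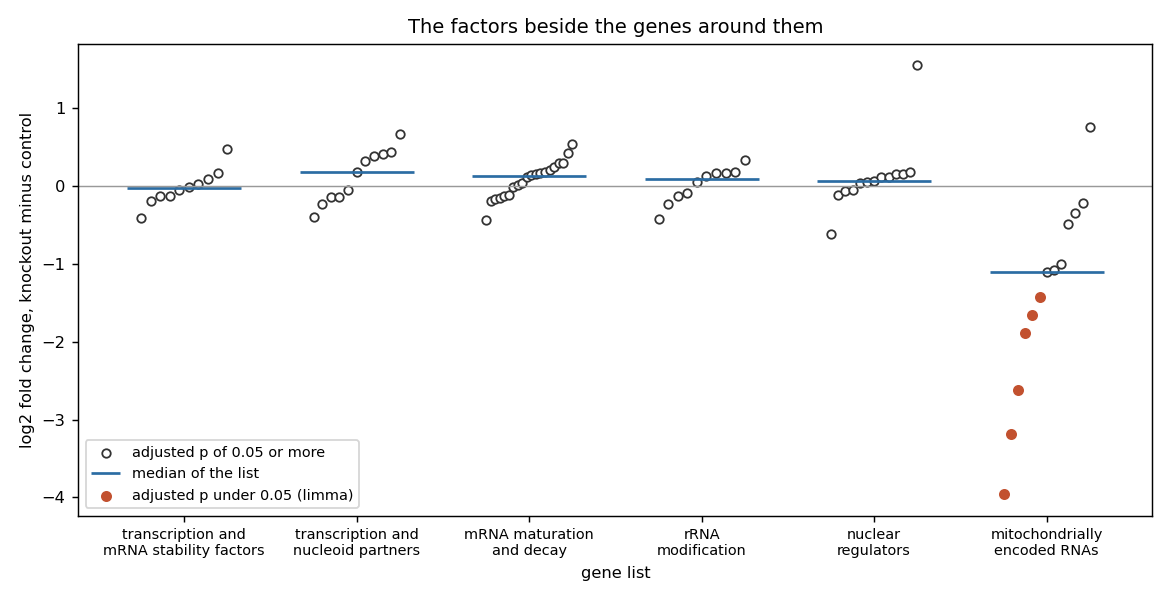
Log2 fold change of each tested gene in the 6 lists, with red for an adjusted p under 0.05 by limma and a blue line at the median of each list. The 10 factors lie between -0.42 and 0.47 around a median of -0.03, whereas 6 mitochondrially encoded RNAs were called lower, down to -3.96.

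Across the 6 hearts of the table the mean centred log2 value of the members ranged only from -0.07 (knockout replicate 2) to 0.04 (mouse 585H). The genes whose profile was most like that mean over these 6 libraries were Prxl2c (Pearson r = 0.981), Stau1 (r = 0.981) and Arhgap20 (r = 0.975), the best of all genes tested, and all 6 values of a gene share the same normalization. This likeness is a description of 6 values.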

How the data were processed

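Reads of strand-specific TruSeq libraries had been aligned by the authors with STAR 2.7.3a to GRCm38.p6, in which nuclear copies of mitochondrial sequence were masked. They were assigned to GENCODE vM24 genes (mitochondrial part customized) with Salmon 1.1.0 and tximport, and divided by DESeq2 1.26.0 size factors. The deposited values are thus a signal (normalized counts). All (100%) were whole multiples of the value of a single read within 0.001, which gave back whole counts. These are counts estimated by Salmon and are called reads here. The Poisson intervals leave out the error of that estimate. A deposited table of the authors' own fold changes and p-values was not used. Genes that reached 10 in 2 or more of the compared libraries (14522) were tested with limma 3.58.1 (R 4.3.3) on log2(normalized count + 1), with a mean-variance trend, two-sided, and Benjamini-Hochberg adjustment at 0.05. This scale understates changes of low genes. Alternatives were edgeR 4.0.16 and DESeq2 1.42.0 on the regained reads, other pseudocounts, filters, scalings and variance models, a replicate block, each heart left out, and the 6 mice by either label. Scripts were tested on simulated data. Positions and lengths are from GENCODE vM21 (GRCm38). Named genes were all members, Ssbp1, up to 3 genes per list and direction with the smallest unadjusted p under 0.05 (otherwise the gene with the smallest p), and mt-Cytb, mt-Nd1 and mt-Nd6. Nrf1, Gabpa and Ppargc1a were named after their values were seen. Members and lists were chosen with earlier results of these data known.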

Additional observations from a re-analysis of the deposited data

Results flagged for a closer look

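In the 2 mice whose labels contradict each other, which enter none of the main comparisons, each had 4 members above both controls. In mouse 585H these were Tfam with a normalized count of 341, Tfb1m with 97.1, Lrpprc with 2635 and Slirp with 216. In mouse 586H they were Tfam with 327, Mterf2 with 186, Mterf4 with 126 and Lrpprc with 2360. They are listed because they exceed both controls in data not used for the comparison. Of all genes tested, 33.8% in mouse 585H and 33.6% in mouse 586H did so, and 4 of 10 members is close to that share. In each mouse 3 members lay below both controls (33.8% and 33.2% of all genes): Tefm (127), Mterf2 (170) and Mterf4 (113) in mouse 585H, and Tefm (115), Mterf3 (175) and Slirp (188) in mouse 586H. Whether these values differ from the controls was not tested.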

How the results depend on the processing

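No member was called under any of the 17 alternatives, and Tfam, Lrpprc and Tefm kept their sign in all of them. Many alternatives could not change a sign, as other filters, the replicate block and other limma variance models leave the log2 fold change as it is. Leaving out a heart could not turn Tfam or Lrpprc either, because their groups did not overlap. The lowest limma adjusted p of any member was 0.342, for Tfb2m without control replicate 1. The 17 genes called over all genes became 30 with the replicate block, 0 with the 6 mice grouped by title, 51 by the genotype field, 6 without a mean-variance trend, 62 with DESeq2 and 6 to 43 when a heart was left out. The replicate block (2 numbers only, correlation of the replicate differences 0.31 over genes) called no member. The 6 genes called in the 5 lists around the members were all mitochondrially encoded. They became 0 by title, 0 without a trend, and 10 both by the genotype field and with DESeq2. Each set of 10 held 9 mitochondrially encoded RNAs and Lonp1. By title, the members with all knockouts above all controls were 0 instead of 2, and by the genotype field they were again 2. Full separation is harder to reach with 6 mice than with 2 hearts per group. Its share over all genes was not counted for the 6 mice. Signs changed by title for Ssbp1 (0.0038), Mterf4 (0.047) and Slirp (-0.0044), and by the genotype field for Mterf2 (-0.024), Mterf3 (0.016) and Tfb1m (0.021). Mterf4 also changed sign with equal nuclear totals (0.0048), edgeR (0.011) and DESeq2 (0.0022). With a heart left out, where the lone heart of a group is assumed to vary like the others, log2 fold changes ranged from -0.86 to 0.032 for Polrmt, -0.34 to 0.25 for Tfb1m, -0.49 to 0.093 for Tfb2m, -0.098 to 0.15 for Mterf2, -0.42 to 0.17 for Mterf3, -0.23 to 0.21 for Mterf4 and -0.027 to 0.21 for Slirp. The log2 ratio ranged from -0.21 to 0.052 for Slirp to Lrpprc and from -0.61 to 0.31 for Tfb2m to Tfb1m, and the median of the members from -0.10 to 0.16. The cause of these changes was not tested. With 2 hearts per group the adjusted test calls large differences only, and the intervals of the factors give the values compatible with the data, not what could be detected.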

Other observations

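The mice 585H and 586H can be placed in no group by their labels. mt-Cytb had normalized counts of 9788 in mouse 585H and 225993 in mouse 586H, whereas control hearts had 173453 and 221488 and knockout hearts 14504 and 10950. Ssbp1 had 152 in mouse 585H and 211 in mouse 586H. Polrmt had 326 and 432, Tfb2m 352 and 329, Tefm 127 and 115, and Mterf3 215 and 175 in mice 585H and 586H, respectively. The Slirp to Lrpprc ratio was 0.0820 and 0.0798, and the Tfb2m to Tfb1m ratio 3.63 and 3.80. Normalized counts of heavy-strand mRNA per normalized count of Lrpprc were 478 in mouse 585H and 1416 in mouse 586H. These mice are not replicates of each other, and no group was inferred from these values.

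Some members varied between hearts alike. Tfb2m, Mterf3 and Tefm were each highest in control replicate 2 of the 4 compared hearts, and over the 6 libraries the Pearson correlation of the log2 values of Tfb2m and Mterf3 was 0.946. Mterf2 and Mterf4 shared knockout replicate 1 as their highest and knockout replicate 2 as their lowest heart (r = 0.914). These pairs are the highest of 45, over 6 libraries normalized together, and are given as a description. Other pairs ran in opposite directions, the lowest being Polrmt with Slirp (r = -0.816).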
